A study of Homo sapiens with 9 samples.

Results

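HepG2, an established human liver cancer line, makes and secretes lipoproteins, and 10 genes of that task were followed here: *APOA1*, *APOA2*, *APOA4*, *APOB*, *APOC1*, *APOC3*, *APOE*, *APOM*, *MTTP* and *LCAT*. They were taken by name, and all 10 were listed in both count tables, which hold 13017 genes for sh1-*TUG1* and 12953 for sh2-*TUG1*, with 12854 genes in both. The groups were sh-Con, a HepG2 line with a control shRNA labelled as wild type, and sh1-*TUG1* and sh2-*TUG1*, HepG2 lines that carry one of a pair of separate shRNAs against the long noncoding RNA *TUG1* and are labelled as *TUG1* knockdown. All 3 lines carry a lentiviral vector (Tet-pLKO-Puro) from which doxycycline (DOX) switches on the hairpin; the labels give neither a dose nor a duration of DOX, nor whether a line is a clone or a pool of infected cells. RNA-seq was done on 3 libraries per group, 9 in all, described by the study as technical replicates, so the SDs and p-values below measure the spread between libraries and need not cover the spread between cultures. *TUG1* itself was not analysed here, and the labels could not be compared with its level.

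A lipoprotein is a droplet of triglyceride and cholesteryl ester wrapped in phospholipid and protein. The liver builds very low density lipoprotein (VLDL) on 1 molecule of apolipoprotein B per particle: the microsomal triglyceride transfer protein (MTTP) loads lipid onto the growing chain in the endoplasmic reticulum, and without MTTP the chain is degraded. High density lipoprotein (HDL) is built on apolipoproteins A-I and A-II, takes up cholesterol from cells, and has that cholesterol esterified by lecithin-cholesterol acyltransferase (LCAT). Apolipoproteins C-I, C-III, E and A-IV move between particles and help to set how fast lipid is removed or which receptor takes the particle up. Apolipoprotein M is a lipocalin on HDL.

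The libraries held 33051617 to 39393293 counts, and the control counts of the shared genes are identical in both tables, so both knockdown lines were set against the same 3 control libraries. For 2 libraries the agreement with their group was poorer: sh-Con replicate 1 (chi-squared per degree of freedom of 22.7 and 25.8 against the other two, which had 10.6 between them) and sh2-*TUG1* replicate 3 (18.1 and 16.2, against 6.41), measured over 10772 genes counted at least 100 times in each of the 9 libraries. Calls that changed without them are given both ways below. Hepatocyte markers outside the 10 genes (12 of 12 listed) summed to 45493 to 47436 CPM (counts scaled to the TMM-normalized library size) in sh-Con, 48162 to 49786 in sh1-*TUG1* and 52516 to 54115 in sh2-*TUG1*. *ALB*, serum albumin, alone ran from 12780 to 14493, from 17839 to 19227 and from 25377 to 25399 CPM. Without *ALB* the sum of the other 11 markers had the opposite order. It was 32173 to 34656 CPM in sh-Con, 29856 to 30559 in sh1-*TUG1* and 27139 to 28716 in sh2-*TUG1*. Single markers differed in order: in the same groups the means were 7435, 6292 and 4921 CPM for *SERPINA1*, and 4788, 6366 and 6526 for *AFP*. Markers of stromal, endothelial and leukocyte cells summed to 118 to 142 CPM over all 9 libraries, with overlapping groups, and 5 of 10 were listed. *COL1A1*, *COL1A2*, *COL3A1*, *CDH5* and *PTPRC* were not listed. In bulk RNA, less transcript per cell and fewer cells that make it cannot be told apart.

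The members fall into a few places in the genome (GRCh38, GENCODE 29). *APOA1* (chr11:116835751-116837950), *APOC3* (chr11:116829706-116833072) and *APOA4* (chr11:116820700-116823306) lie side by side on chromosome 11, with *APOC3* on the plus strand and both others on the minus strand. *APOE* (chr19:44905754-44909393) and *APOC1* (chr19:44914247-44919349) are plus-strand neighbours on chromosome 19. The others stand alone: *APOB* at chr2:21001429-21044073, *APOA2* at chr1:161222292-161223631, *APOM* at chr6:31652416-31658210, *MTTP* at chr4:99563761-99623999 and *LCAT* at chr16:67939750-67944131. The transcripts run from 866 bases of merged exons in *APOC3* to 14828 in *APOB*.

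Because miR-122-5p, the abundant hepatocyte microRNA, is the microRNA that the study places beside *TUG1*, the 3′ UTRs of the members were searched for its seed matches, ACACTCC and CACTCCA. The mature sequence (RefSeq, GRCh38.p14, chromosome 18) is shown with its seed, bases 2 to 8, in capitals.
miR-122-5p: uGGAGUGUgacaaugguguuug
None of the 10 members held either heptamer in the 3′ UTR read from GENCODE 29, whereas 20.8% of 11737 tested genes with a 3′ UTR did. The member 3′ UTRs are mostly short, from 57 bases in *APOA1* to 301 in *APOB*, with 1151 in *MTTP*, and the median over genes was 1066, so that few bases were searched. The 8-base match was likewise in 0 of 10 members and in 2.82% of genes.

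Of the members that passed the DEG criteria in a comparison below (*APOA2*, *APOA4*, *APOC3* and *APOM*), the RefSeq promoter table (250 bases before to 50 bases after the start) gave *APOA2*, *APOA4* and *APOM*, which are printed 5′ to 3′ on the strand of the gene. Capitals mark a match to CAAAGNNCA, a loose form of the core element bound by HNF4, the nuclear receptor at the centre of hepatocyte gene control. The loose form was chosen after the stricter motifs had been seen to have no match.
*APOA2*, chr1:161223579-161223878 (GRCh38.p14, minus strand): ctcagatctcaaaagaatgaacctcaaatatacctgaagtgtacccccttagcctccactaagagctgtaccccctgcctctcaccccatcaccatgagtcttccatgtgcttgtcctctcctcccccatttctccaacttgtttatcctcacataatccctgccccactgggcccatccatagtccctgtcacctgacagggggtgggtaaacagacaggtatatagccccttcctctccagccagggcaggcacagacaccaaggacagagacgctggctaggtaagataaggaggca
*APOA4*, chr11:116823255-116823554 (GRCh38.p14, minus strand): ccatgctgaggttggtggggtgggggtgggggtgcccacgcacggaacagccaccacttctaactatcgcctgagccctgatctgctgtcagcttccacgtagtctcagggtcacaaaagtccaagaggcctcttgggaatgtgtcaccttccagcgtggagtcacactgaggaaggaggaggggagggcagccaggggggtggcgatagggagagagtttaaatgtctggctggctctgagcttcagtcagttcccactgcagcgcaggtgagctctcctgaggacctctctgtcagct
*APOM*, chr6:31655644-31655943 (GRCh38.p14, plus strand): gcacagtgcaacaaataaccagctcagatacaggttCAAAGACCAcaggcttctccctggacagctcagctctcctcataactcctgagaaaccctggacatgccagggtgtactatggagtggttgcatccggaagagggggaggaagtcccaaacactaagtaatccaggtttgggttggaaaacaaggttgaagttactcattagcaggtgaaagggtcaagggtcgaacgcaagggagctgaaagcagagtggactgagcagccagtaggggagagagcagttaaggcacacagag
In 9 promoters of 6 members (*APOA2*, *APOA4*, *APOC1*, *APOE*, *APOM* and *MTTP*), none held CAAAGTCCA (HNF4), GTTAATNAT (HNF1), TTGCNNAA (CEBP) or CACGTG (the palindromic E-box) on either strand. These were found in 0.384%, 0.792%, 10.5% and 7.26% of all 35116 promoters of the same length. The loose HNF4 form was found once, in *APOM* from base -214 to -206, and in 5.28% of all promoters. These are matches of letters only.

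The order of the members by level per length, which makes genes comparable, spread widely in sh-Con cells. *APOA2* was at 2205 ± 303 CPM per kb of merged exons (SD, n = 3), followed by *APOE* at 1032 ± 73.8, *APOA1* at 889 ± 64.3 and *APOB* at 419 ± 12.3. *APOM* (117 ± 2.80) and *APOC1* (113 ± 2.53) came next, and their control libraries overlapped. *APOC3* (58.7 ± 4.34), *MTTP* (22.0 ± 1.67), *LCAT* (15.2 ± 0.578) and *APOA4* (4.47 ± 0.392) were lower still, each without overlap with its neighbours. *APOA2* ranked 10 and *APOA4* ranked 6758 among 11808 genes on this scale. The longest annotated transcript as the length swapped *APOM* and *APOC1* and kept every other place. In sh1-*TUG1* and sh2-*TUG1* cells *LCAT* (22.7 ± 0.703 and 18.8 ± 0.604) stood above *MTTP* (19.0 ± 1.63 and 14.9 ± 0.694), the reverse of their order in sh-Con. Per library rather than per length, *APOB*, the longest of the transcripts, took 49.4% to 51.4% of all member counts in sh-Con. The 10 genes together held 1.24% ± 0.0586 of all counts in sh-Con, 1.37% ± 0.0490 in sh1-*TUG1* and 1.08% ± 0.103 in sh2-*TUG1* (SD, n = 3). The sh2-*TUG1* libraries held 1.02%, 1.02% and 1.20%, and the highest, replicate 3, lay inside the sh-Con range of 1.17% to 1.29%, while the other two lay below it.

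**Figure D1:**
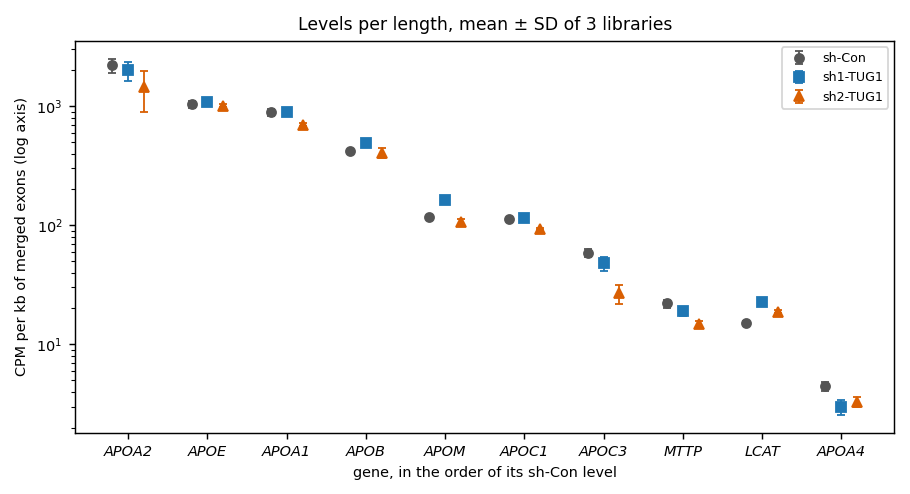
Level of each gene per kb of merged exons (CPM per kb, log axis) in sh-Con, sh1-*TUG1* and sh2-*TUG1*; points are means and bars the SD of 3 libraries. *APOA2*, *APOE* and *APOA1* stood at the top in all 3 groups and *APOA4* at the bottom, and *LCAT* passed *MTTP* in both knockdown lines.

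Each line was then compared with sh-Con to ask which of these genes differed from the control line. In sh1-*TUG1* cells the members split: *APOB*, *APOM* and *LCAT* rose, *APOA4* and *APOC3* fell, and *APOA1*, *APOA2*, *APOC1*, *APOE* and *MTTP* did not pass the test. In sh2-*TUG1* cells they leaned one way: *APOA1*, *APOA2*, *APOA4*, *APOC1*, *APOC3*, *APOM* and *MTTP* fell, *LCAT* rose, and *APOB* and *APOE* did not pass. The test was edgeR's quasi-likelihood test, with p-values adjusted by Benjamini-Hochberg over all genes of the table. In sh1-*TUG1*, 3 members were higher at an adjusted p below 0.05, where 12.5% of all genes were, and 2 were lower, where 12.3% were. In sh2-*TUG1*, 1 member was higher, against 21.6% of all genes, and 7 were lower, against 21.9%. With 1 library left out, the members called lower numbered 0 to 3 in sh1-*TUG1* and 4 to 7 in sh2-*TUG1*. The calls on *APOA4* and *APOC3* in sh1-*TUG1*, and on *APOA2*, *APOA4* and *APOM* in sh2-*TUG1*, were lost in several of these fits. For the members the log2(fold change) had a median of 0.01 in sh1-*TUG1*, and of -0.32 in sh2-*TUG1*, beside medians of 0.0027 and -0.0048 over all genes tested.

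Few of these changes were large. With the study's DEG criteria (a change of more than 1.5 times together with the adjusted p), 1 member was a lower DEG in sh1-*TUG1*, *APOA4*, against 2.52% of all genes, and 0 were higher DEGs, against 2.44%. In sh2-*TUG1*, 2 members were lower DEGs, *APOA2* and *APOC3*, against 8.97% of all genes, and 0 were higher, against 4.35%. A pair of genes stopped just short of the fold limit: *LCAT* at 1.49 times its control level in sh1-*TUG1*, and *MTTP* at 0.675 times in sh2-*TUG1*. Between the lines (sh2-*TUG1* minus sh1-*TUG1*, from a fit to the 9 libraries together), 7 members were lower and 0 higher by adjusted p, against 21.7% and 21.0% of all genes, and 2 were lower DEGs (*APOC3* and *APOM*) and 0 higher, against 8.04% and 2.56%. The median of the members there was -0.33, beside -0.00067 over all genes.

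**Figure D2:**
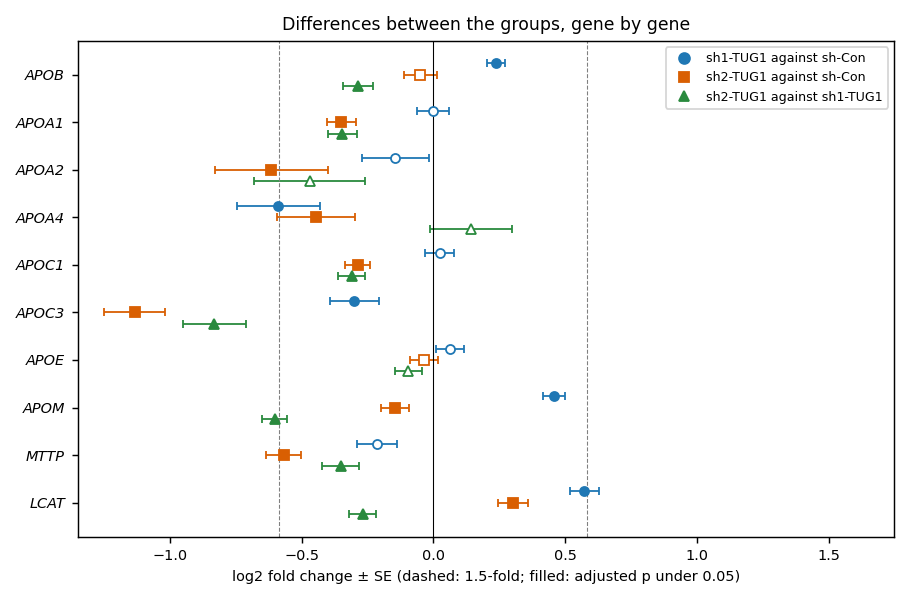
Log2(fold change) with its SE for each gene in 3 comparisons: sh1-*TUG1* against sh-Con (circles), sh2-*TUG1* against sh-Con (squares) and sh2-*TUG1* against sh1-*TUG1* (triangles). Filled symbols have an adjusted p below 0.05 and dashed lines mark a fold change of 1.5. *APOC3* in sh2-*TUG1* lies farthest to the left at -1.13, *LCAT* in sh1-*TUG1* farthest to the right at 0.57.

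*APOB* encodes apolipoprotein B, the scaffold that stays with a VLDL or LDL particle for its whole life. Its level was 6273, 6002 and 6350 CPM in sh-Con, 7394, 7228 and 7358 in sh1-*TUG1*, and 5690, 5680 and 6659 in sh2-*TUG1*. All sh1-*TUG1* libraries lay above all control libraries, while sh2-*TUG1* had 2 libraries below the controls and replicate 3 above them. *APOB* had a log2(fold change) of 0.24 (SE 0.0341, adjusted p = 0.000962, edgeR) in sh1-*TUG1* and -0.05 (SE 0.0625, adjusted p = 0.555) in sh2-*TUG1*. Without sh2-*TUG1* replicate 3 the sh2-*TUG1* value was -0.13 (adjusted p = 0.0366), and without both libraries that stood apart -0.12 (adjusted p = 0.00248). Between the lines *APOB* was lower in sh2-*TUG1* by a log2 difference of -0.29 (SE 0.0551, adjusted p = 0.00151), with no overlap.

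*MTTP* encodes the large subunit of the protein that lipidates apolipoprotein B; its partner subunit is protein disulfide isomerase, encoded by *P4HB*. *MTTP* stood at 110, 118 and 128 CPM in sh-Con, 96.6, 98.4 and 113 in sh1-*TUG1*, and 76.2, 81.4 and 83.4 in sh2-*TUG1*. Here sh2-*TUG1* was below every control library, and sh1-*TUG1* lay between, with 1 library inside the control range. The fall in sh2-*TUG1* was -0.57 on the log2 scale (SE 0.0670, adjusted p = 0.000156), and it was past the 1.5-fold limit as well without sh-Con replicate 1 or without sh2-*TUG1* replicate 3. In sh1-*TUG1* the value was -0.21 (SE 0.0747, adjusted p = 0.0631), which passed without sh-Con replicate 1 (adjusted p = 0.0153) or without sh1-*TUG1* replicate 3 (0.0294), with DESeq2 (0.0210) and in a fit of all 9 libraries (0.0424). The lines differed by -0.35 (SE 0.0710, adjusted p = 0.00200). *P4HB* was at -0.14 (adjusted p = 0.0350) in sh1-*TUG1* and at 0.05 (adjusted p = 0.405) in sh2-*TUG1*. *TRMT10A*, which overlaps the start of *MTTP* on the other strand, was at 0.02 and 0.21 (adjusted p = 0.952 and 0.181).

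The main HDL proteins came next. *APOA1*, whose product is the principal protein of HDL and the activator of LCAT, was at 1202, 1224 and 1371 CPM in sh-Con, 1203, 1241 and 1349 in sh1-*TUG1*, and 982, 1023 and 980 in sh2-*TUG1*. The sh-Con and sh1-*TUG1* libraries covered almost the same range, and sh2-*TUG1* was below both without overlap. Its log2(fold change) was -0.00 (SE 0.0610, adjusted p = 0.982) in sh1-*TUG1*, -0.35 (SE 0.0562, adjusted p = 0.000953) in sh2-*TUG1*, and -0.35 (SE 0.0559, adjusted p = 0.000462) between the lines. In sh1-*TUG1* its sign was not fixed, since it turned positive under 4 of the other settings tried. *APOA1-AS*, an antisense gene that overlaps *APOA1*, was not in the tables, and the library kit named in the labels does not mark strand, so reads from the 2 strands cannot be told apart.

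*APOA2*, which encodes the second HDL protein, was the least even of the members within groups. It was at 2235, 1753 and 2262 CPM in sh-Con, 1547, 1887 and 2225 in sh1-*TUG1*, and 1067, 1059 and 1961 in sh2-*TUG1*. The third sh2-*TUG1* library was nearly at the level of the controls, and the groups overlapped. In sh2-*TUG1* cells the log2(fold change) was -0.61 (SE 0.214, adjusted p = 0.0410), and in sh1-*TUG1* cells -0.14 (SE 0.127, adjusted p = 0.451). The sh2-*TUG1* call did not pass with DESeq2 (adjusted p = 0.128), nor without sh-Con replicate 1 (0.0887), sh-Con replicate 3 (0.0987), sh2-*TUG1* replicate 1 (0.148) or sh2-*TUG1* replicate 2 (0.142), and without sh2-*TUG1* replicate 3 the change was -0.97 (adjusted p = 0.000122). Between the lines the difference was -0.47 (SE 0.211, adjusted p = 0.0933), and -0.83 (adjusted p = 0.000755) without that library.

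*APOM* encodes a lipocalin on HDL that carries sphingosine-1-phosphate, and it moved in opposite directions in the lines. Its level was 198, 197 and 189 CPM in sh-Con, 273, 271 and 259 in sh1-*TUG1*, and 167, 176 and 186 in sh2-*TUG1*. None of the 3 groups overlapped: sh1-*TUG1* was highest and sh2-*TUG1* lowest, though its top library was close to the lowest control. The log2(fold change) was 0.46 (SE 0.0415, adjusted p = 6.99e-05) in sh1-*TUG1*, whereas the fall of -0.14 in sh2-*TUG1* (SE 0.0529, adjusted p = 0.0498) only just passed. It no longer passed with RLE size factors (adjusted p = 0.0520) or without sh-Con replicate 1 (0.0767), 2 (0.128) or 3 (0.0719), or sh2-*TUG1* replicate 1 (0.192) or 2 (0.126). The difference between the lines, -0.60 (SE 0.0470, adjusted p = 1.97e-06), was larger than either and passed the DEG criteria, except that without sh2-*TUG1* replicate 1 it was -0.56. *BAG6*, which overlaps the start of *APOM* on the other strand, was at 0.06 and 0.09 (adjusted p = 0.448 and 0.225).

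*LCAT* encodes the enzyme that esterifies cholesterol on HDL, and it was the member that rose in both lines. *LCAT* was at 39.9, 41.6 and 38.5 CPM in sh-Con, 57.4, 61.0 and 60.1 in sh1-*TUG1*, and 51.0, 49.4 and 47.9 in sh2-*TUG1*. The 3 groups were fully separate, with sh2-*TUG1* in the middle. *LCAT* changed by a log2(fold change) of 0.57 (SE 0.0547, adjusted p = 9.18e-05) in sh1-*TUG1*, 0.30 (SE 0.0576, adjusted p = 0.00244) in sh2-*TUG1* and -0.27 (SE 0.0518, adjusted p = 0.00153) for sh2-*TUG1* against sh1-*TUG1*. It became a higher DEG in sh1-*TUG1* without sh-Con replicate 2 or sh1-*TUG1* replicate 1, and with library size alone. *SLC12A4* overlaps *LCAT* on the same strand and was higher in both lines too, by 0.20 (adjusted p = 0.0138) and 0.25 (adjusted p = 0.00764). How reads in the shared stretch were assigned is not given in the sources used here, and its part in the *LCAT* values was not tested.

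**Figure D3:**
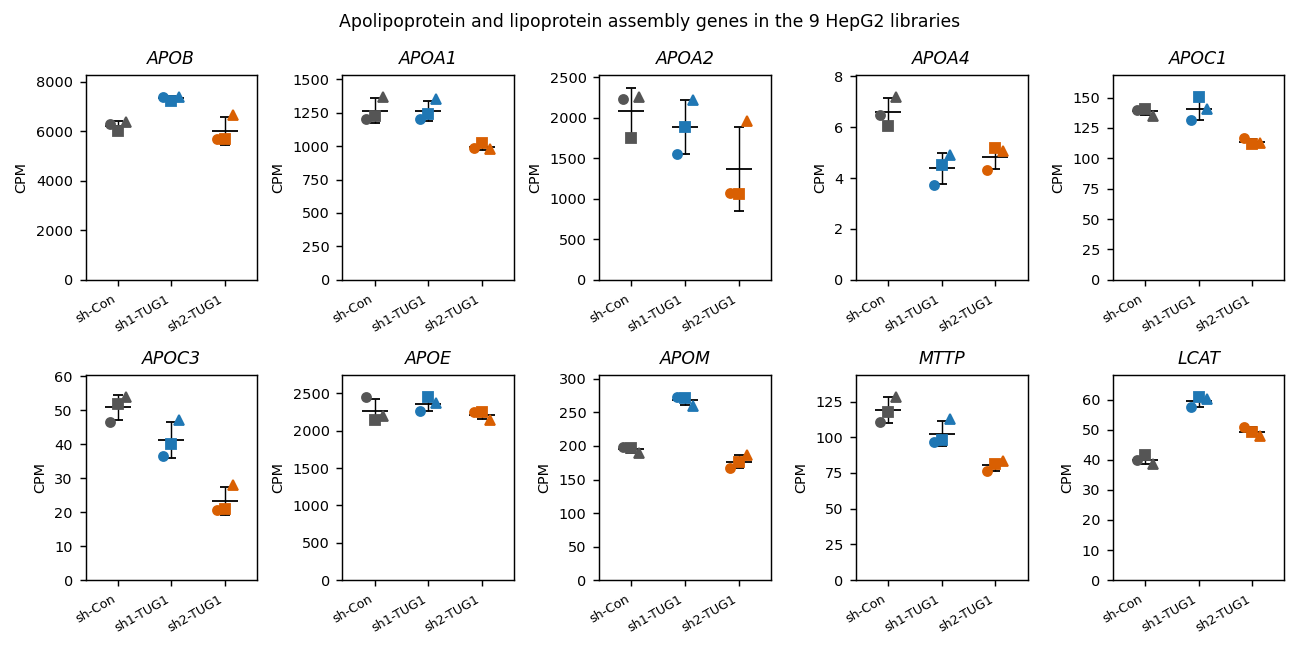
CPM of the 10 genes in each of the 9 libraries, 1 panel per gene with its axis from 0; circles, squares and triangles are replicates 1, 2 and 3, and the black line and bars are the mean and SD of 3 libraries. *APOC3* and *MTTP* step down from sh-Con to sh2-*TUG1*, *LCAT* and *APOM* are highest in sh1-*TUG1*, and the triangle of sh2-*TUG1* stands apart for *APOA2* and *APOB*.

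*APOC3* showed the largest change among the members. Its product, apolipoprotein C-III, inhibits lipoprotein lipase and slows the clearance of triglyceride-rich particles. It was at 46.7, 52.0 and 54.0 CPM in sh-Con, 36.7, 40.1 and 47.2 in sh1-*TUG1*, and 20.7, 20.9 and 27.9 in sh2-*TUG1*. Every sh2-*TUG1* library was below every other library, and sh1-*TUG1* overlapped the controls at its top value. In sh2-*TUG1* the mean was 23.2 ± 4.12 CPM, against 50.9 ± 3.76 in sh-Con (SD, n = 3), a log2(fold change) of -1.13 (SE 0.115, adjusted p = 6.16e-05), which stayed between -1.29 and -1.06 with any 1 library left out. In sh1-*TUG1* the change was -0.30 (SE 0.0937, adjusted p = 0.0420). That call was lost without sh-Con replicate 2 (adjusted p = 0.101) or 3 (0.113), without sh1-*TUG1* replicate 1 (0.145) or 2 (0.131), with library size alone (0.0629) and in the fit of all 9 libraries (0.0782). The difference between the lines was -0.83 (SE 0.120, adjusted p = 0.000208).

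*APOA4* encodes apolipoprotein A-IV, made mainly by the intestine, and it was the scarcest member, with 127 to 269 counts per library. *APOA4* was at 6.50, 6.06 and 7.21 CPM in sh-Con, 3.72, 4.52 and 4.91 in sh1-*TUG1*, and 4.31, 5.18 and 5.05 in sh2-*TUG1*. Both lines were below the controls without overlap, and they overlapped each other. The log2(fold change) was -0.59 (SE 0.157, adjusted p = 0.0230) in sh1-*TUG1* and -0.45 (SE 0.149, adjusted p = 0.0358) in sh2-*TUG1*, with 0.14 (SE 0.155, adjusted p = 0.483) between the lines. The sh1-*TUG1* call was lost without sh-Con replicate 3 (adjusted p = 0.0749) or sh1-*TUG1* replicate 1 (0.0757) or 2 (0.0584). In sh2-*TUG1* it was lost without sh-Con replicate 1 (0.0590) or 3 (0.125) and without any one of the sh2-*TUG1* replicates (0.108, 0.0572 and 0.0610), and it held without sh-Con replicate 2 (0.0459). An antisense gene that overlaps *APOA4* (*AP006216.3*) was not in the tables. The chromosome 11 neighbours *APOA4*, *APOC3* and *APOA1* all fell in sh2-*TUG1*, by log2(fold changes) of -0.45, -1.13 and -0.35. The *APOA4* call there was lost in the fits named above, while those on *APOC3* and *APOA1* held with each library left out in turn. In sh1-*TUG1*, *APOA4* and *APOC3* fell, by calls that were lost in several fits, while *APOA1* was at -0.00. Differences between these genes were not tested.

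*APOC1* and *APOE* lie next to each other on chromosome 19. *APOC1*, whose product inhibits the cholesteryl ester transfer protein, was at 140, 141 and 135 CPM in sh-Con, 132, 151 and 140 in sh1-*TUG1*, and 116, 112 and 113 in sh2-*TUG1*. Only sh2-*TUG1* stood clear of the controls. *APOC1* has a pseudogene of like sequence nearby, and how reads that fit both were counted is not given in the sources used here. The log2(fold change) was -0.29 (SE 0.0465, adjusted p = 0.000982) in sh2-*TUG1*, 0.02 (SE 0.0552, adjusted p = 0.796) in sh1-*TUG1* and -0.31 (SE 0.0514, adjusted p = 0.000543) between the lines. *APOE*, the ligand by which remnants are taken up by hepatic receptors, was at 2445, 2139 and 2203 CPM in sh-Con, 2264, 2453 and 2372 in sh1-*TUG1*, and 2247, 2247 and 2144 in sh2-*TUG1*. All its groups lay within a narrow band, and both lines overlapped the controls, while the lines did not overlap each other. The changes were 0.06 (SE 0.0529, adjusted p = 0.432) and -0.03 (SE 0.0537, adjusted p = 0.635), and between the lines -0.10 (SE 0.0512, adjusted p = 0.156). Without sh-Con replicate 1, the highest *APOE* control, the sh1-*TUG1* value was 0.12 (adjusted p = 0.0280). The difference between the lines also passed without that library (adjusted p = 0.0338). It passed as well with library size alone and in a fit of the 6 sh1-*TUG1* and sh2-*TUG1* libraries.

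The wider pathway was read through lists of genes by role. The counts in these lists stand beside the shares over all genes. By adjusted p, 12.5% of all genes rose and 12.3% fell in sh1-*TUG1*. In sh2-*TUG1*, 21.6% rose and 21.9% fell. Higher and lower DEGs were 2.44% and 2.52% of all genes in sh1-*TUG1*, and 4.35% and 8.97% in sh2-*TUG1*. Of the other apolipoproteins, 7 of 10 were listed, and none rose in sh2-*TUG1*: 3 fell (*APOA5*, *APOC2* and *APOF*) and 4 did not pass. *APOF*, whose product inhibits cholesteryl ester transfer, was a lower DEG there at -0.86 (SE 0.0965, adjusted p = 0.000112), and *APOA5*, which lies in the same chromosome 11 cluster and encodes an activator of lipoprotein lipolysis, was at -0.57 (adjusted p = 0.000512). In sh1-*TUG1*, 1 rose (*CLU*, clusterin, 0.30, adjusted p = 0.00440) and 1 fell (*APOF*, -0.33, adjusted p = 0.0282). The list had its median at 0.10 in sh1-*TUG1*, and at -0.34 in sh2-*TUG1*. *APOC4*, *APOD* and *LPA* were not listed in both tables.

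Particle assembly and secretion split more evenly, with all 16 genes listed. In sh1-*TUG1*, 5 rose and 4 fell, and 2 were higher DEGs: *PLA2G12B*, a secreted phospholipase-like protein needed to lipidate VLDL, at 0.93 (SE 0.132, adjusted p = 0.000932), and *DGAT1*, which makes triglyceride, at 0.71 (SE 0.0657, adjusted p = 7.66e-05). In sh2-*TUG1*, 5 rose and 3 fell, and 2 were lower DEGs: *SOAT2*, the hepatocyte cholesterol esterifying enzyme, at -0.74 (SE 0.0643, adjusted p = 2.28e-05), and *TM6SF2*, which acts in VLDL lipidation, at -0.76 (SE 0.219, adjusted p = 0.0192). *TM6SF2* did not pass without sh-Con replicate 1 (adjusted p = 0.0518) or 2 (0.0550) or sh2-*TUG1* replicate 1 (0.0579) or 2 (0.0598). The medians were -0.01 and 0.00.

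Remodelling enzymes and transfer proteins (11 of 13 listed; *LPL* and *PON1* were not) held the widest range of the 5 lists on lipoproteins in sh2-*TUG1*. There, 6 fell and 2 rose, with a median of -0.46, and 4 were lower DEGs. *ANGPTL4*, an inhibitor of lipoprotein lipase like apolipoprotein C-III, was at -2.10 (SE 0.154, adjusted p = 8.49e-06), *PLTP*, the phospholipid transfer protein, at -1.24 (SE 0.117, adjusted p = 4.05e-05), *LIPC*, hepatic lipase, at -0.87 (SE 0.104, adjusted p = 0.000177), and *ANGPTL8*, a regulator of lipoprotein lipase, at -0.93 (SE 0.161, adjusted p = 0.00142). *FURIN*, a protease that cleaves lipases and ANGPTL proteins, was a higher DEG at 1.03 (SE 0.0451, adjusted p = 5.64e-07). In sh1-*TUG1*, 1 rose (*FURIN*, 0.34, adjusted p = 0.000735) and 4 fell, with a median of -0.17, and *ANGPTL4* at -0.80 (SE 0.130, adjusted p = 0.00190) was the DEG.

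Among receptors and lipid efflux genes (11 of 13 listed; *ABCG1* and *STAB1* were not), 7 fell and 0 rose in sh2-*TUG1*, with a median of -0.26, and 3 rose and 3 fell in sh1-*TUG1*, with a median of 0.03. *SCARB1*, the HDL receptor, was a lower DEG in sh2-*TUG1* at -0.70 (SE 0.0536, adjusted p = 1.07e-05) and fell by 0.31 on the log2 scale in sh1-*TUG1* (adjusted p = 0.00142). *LRP1*, which takes up remnant particles, rose in sh1-*TUG1* (0.24, adjusted p = 0.00321) and fell in sh2-*TUG1* (-0.26, adjusted p = 0.00229). *ABCA1*, which lipidates apolipoprotein A-I, fell in sh2-*TUG1* (-0.48, adjusted p = 0.000914).

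All 21 transcription factors of the list were listed. In sh1-*TUG1*, 7 rose and 0 fell, with a median of 0.14, and in sh2-*TUG1*, 7 rose and 2 fell, with a median of 0.17. *NR1H4*, the bile acid receptor FXR, was a higher DEG in both lines, at 0.62 (SE 0.122, adjusted p = 0.00547) in sh1-*TUG1* and 0.71 (SE 0.139, adjusted p = 0.00274) in sh2-*TUG1*. It fell short of the 1.5-fold limit in sh1-*TUG1* without sh-Con replicate 1 (0.52) or 2 (0.56) or sh1-*TUG1* replicate 3 (0.54), and in sh2-*TUG1* without sh2-*TUG1* replicate 3 (0.58) or without both libraries that stood apart (0.48), while the adjusted p stayed below 0.05 in these fits. *PPARGC1A*, a coactivator of *HNF4A*, was at 0.66 in sh2-*TUG1* (SE 0.0531, adjusted p = 1.40e-05). *NR5A2*, a liver nuclear receptor, was at 0.90 there (SE 0.269, adjusted p = 0.0222), a call that was lost without sh-Con replicate 2 (adjusted p = 0.0596) or 3 (0.0687), or sh2-*TUG1* replicate 1 (0.0502) or 3 (0.0902). The members that fell in sh2-*TUG1* and the 2 factors that fell there, *HNF4A* (-0.20, adjusted p = 0.00758) and *PROX1* (-0.37, adjusted p = 0.00153), are listed side by side without a test of a relation.

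**Figure D4:**
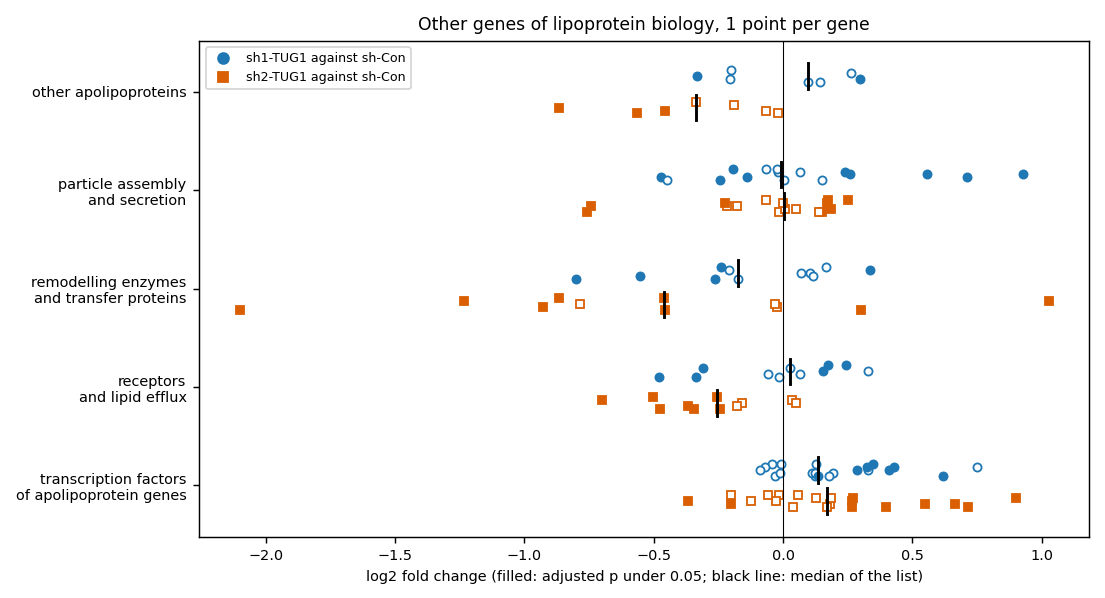
Log2(fold change) of every listed gene of 5 lists in sh1-*TUG1* (circles) and sh2-*TUG1* (squares) against sh-Con; filled symbols have an adjusted p below 0.05 and black lines are list medians. In sh2-*TUG1* the enzymes and transfer proteins reach from *ANGPTL4* at -2.10 to *FURIN* at 1.03, and the transcription factors have their median at 0.17.

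The secreted liver proteins outside lipoproteins did not share a direction either. Of the 12 hepatocyte markers, 7 rose and 3 fell in sh1-*TUG1*, and 4 rose and 6 fell in sh2-*TUG1*. *ALB* was a higher DEG in sh2-*TUG1* (0.91, SE 0.0490, adjusted p = 1.51e-06), while *TTR*, the thyroid hormone carrier transthyretin, at -0.82 (adjusted p = 0.000363) and *SERPINA1*, alpha-1-antitrypsin, at -0.60 (adjusted p = 0.000799) were lower DEGs. *SERPINA1* fell short of the 1.5-fold limit without sh-Con replicate 1 (-0.48), sh2-*TUG1* replicate 1 (-0.56) or 2 (-0.55) or both libraries that stood apart (-0.56), while its adjusted p stayed below 0.05. *TF*, transferrin, was the lower DEG in sh1-*TUG1* (-0.65, adjusted p = 1.63e-06). *ALB* was higher in sh1-*TUG1* too (0.45, SE 0.0502, adjusted p = 0.000233), short of the 1.5-fold limit. Of the 5 listed markers of other cell types, *PDGFRB* (0.65 and 1.44) and *VWF* (1.40 and 1.65) were higher DEGs in both lines, and *CD68* (-0.86 and -1.61), which epithelial cells also express in lysosomes, was a lower DEG in both. *VWF* had only 38 to 170 counts per library. The part of these markers in the members' values was not tested.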

How the data were processed

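RNA-seq of 9 HepG2 libraries was analysed, 3 per group, grouped by the sample labels. The authors deposited 2 tables of raw read counts, 1 per knockdown line with the controls, which a sequencing company made from NEBNext Ultra libraries; the submitters' processing notes name HISAT2, StringTie and GRCh38 without roles or versions, and the counting tool and its strand setting are not given in the sources used here. The FPKM values, log2 fold changes and false discovery rates that the authors deposited in the same tables came from their own normalization and comparison and were not used. All 11930 and 11871 Ensembl identifiers matched GENCODE 29; numbered loci without a position held 1.46% and 1.41% of counts. 

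Whole tables were fitted with edgeR 4.0.16 and limma 3.58.1 under R 4.3.3 (TMM, filterByExpr, quasi-likelihood test), and p-values were adjusted by Benjamini-Hochberg over all genes tested; filterByExpr removed 0 genes. DEGs had a change of more than 1.5 times and an adjusted p below 0.05, as in the study, which does not name its test. The SE of a log2(fold change) is its size divided by the square root of F. CPM are TMM-scaled over 9 libraries; SDs are over 3. The test was first run on simulated counts. Other settings were DESeq2 1.42.0, no filter or at least 1 CPM in 3 libraries, library size alone or RLE size factors, a replicate block, glmTreat, other sets of libraries in the fit and each library left out. Leaving out both libraries that stood apart, and the loose HNF4 motif, were chosen after seeing the data. The 10 genes and the lists were chosen with earlier results of these data known. Named genes are the members, list genes that were DEGs in either line, other list genes where a list is counted, genes overlapping a member, and for member DEGs the 3 genes nearest in pattern. The same replicate number did not pair libraries: correlations of their deviations were -0.194 to 0.050. *TUG1* was not analysed here, and some genes of the lists are not reported here.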

Additional observations from a re-analysis of the deposited data

Results flagged for a closer look

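The knockdown lines were compared with each other by a test of the difference itself (sh2-*TUG1* against sh1-*TUG1*, edgeR's quasi-likelihood test over all 9 libraries). Each hairpin was in its own line, so hairpin and line cannot be told apart. By adjusted p below 0.05 alone the level differed for 7 members and for 53 of 83 list genes. Of all genes, 21.7% were lower in sh2-*TUG1* and 21.0% higher. Among the members, the log2 differences were -0.35 for *APOA1*, -0.29 for *APOB*, -0.31 for *APOC1*, -0.83 for *APOC3*, -0.60 for *APOM*, -0.35 for *MTTP* and -0.27 for *LCAT*, all of them lower in sh2-*TUG1*.

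Of the 53 list genes, the 13 that also passed the 1.5-fold limit are given, where 8.04% of all genes were lower and 2.56% higher. Here sh2-*TUG1* was lower for *APOA5* (-0.71), *PLA2G12B* (-1.10), *DGAT2* (-0.77), *SOAT2* (-1.0), *LIPC* (-1.03), *PLTP* (-1.02), *CETP* (-0.89), *ANGPTL4* (-1.30), *SDC1* (-0.68), *TTR* (-1.28) and *CD68* (-0.75). It was higher for *FURIN* (0.69) and *PDGFRB* (0.79).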

How the results depend on the processing

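Each fit gave a log2(fold change) for every member, and the values of a fit are not independent. Of 210 such values with 1 library left out, over all comparisons, 177 kept their direction and side of the threshold. Of 230 values under other settings, 213 did. For list genes that were DEGs, 148 of 156 values and 197 of 200 did, by adjusted p alone. With glmTreat, which tests against the fold of 1.5, members past the DEG criteria numbered 0 in sh1-*TUG1*, 1 in sh2-*TUG1* (*APOC3*) and 0 between the lines; with DESeq2, 1 in sh2-*TUG1*. With 1 library left out, these counts were 0 to 2, 1 to 3 and 1 to 3, and the counts by adjusted p alone were 3 to 7, 5 to 8 and 7 to 8. Where the sh1-*TUG1* count stayed at 1, the gene was *LCAT* and not *APOA4* with library size alone and without sh1-*TUG1* replicate 1. *APOA1* in sh1-*TUG1* turned to 0.0243 with library size alone and to 0.0536, 0.0329 and 0.0115 without sh-Con replicate 3, sh1-*TUG1* replicate 1 and sh1-*TUG1* replicate 2, with -0.0524 as the lowest value. *APOC1* in sh1-*TUG1* turned to -0.0002 and -0.0270 without sh-Con replicate 3 and sh1-*TUG1* replicate 2, with 0.0716 as the highest, and *APOE* in sh2-*TUG1* to 0.0243 without sh-Con replicate 1 and to 0.0453 without both libraries that stood apart, with -0.0711 as the lowest left-out value. None of these values passed the test. The causes were not tested.

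The replicate number as a block gave 1, 2 and 2 members past the DEG criteria, and 6, 6 and 8 by adjusted p alone, adding *MTTP* in sh1-*TUG1* (-0.21, adjusted p = 0.0179) and *APOA2* between the lines (-0.51, adjusted p = 0.0143), and losing *APOA4* (adjusted p = 0.0732), *APOM* (adjusted p = 0.0992) and *TM6SF2* (adjusted p = 0.0535) in sh2-*TUG1*; the numbers are shared only by name. Without both libraries that stood apart, *MTTP* joined *APOA2* and *APOC3* as a DEG of sh2-*TUG1*, and *APOA4* (adjusted p = 0.0771), *TM6SF2* (adjusted p = 0.0562) and *NR5A2* (adjusted p = 0.124) were lost. The calls on *APOA4* rest on 127 to 269 counts per library. Those on *TM6SF2* rest on 43 to 84, on *NR5A2* on 34 to 95, and on *CETP* on 29 to 94.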

Other observations

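The genes whose pattern over the 9 libraries was nearest to a member that was a DEG in a line were found by the root mean square difference in centred log2 CPM, among genes with a mean of at least 10 CPM. For *APOC3* these were *FUT6* (0.117), a fucosyltransferase gene, *CYP24A1* (0.125), which encodes the vitamin D 24-hydroxylase, and *SLC2A14* (0.130), a glucose transporter gene, where the median gene was at 0.534. Their log2(fold changes) in sh2-*TUG1* were -1.02, -1.08 and -1.20, beside -1.13 for *APOC3*. In sh1-*TUG1* they were -0.37, -0.11 and -0.46, beside -0.30. These genes were picked for likeness over the same libraries, so near values follow from the choice.

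For *APOA2* the nearest were *PTPN6* (0.139), a phosphatase gene, *SMOC1* (0.148), which encodes a matrix protein, and *PRAP1* (0.159), a gene of liver and gut epithelium, with the median gene at 0.436. For *APOA4* they were *SPRY4* (0.0923), an inhibitor of growth factor signalling, *BTN3A2* (0.109), a butyrophilin gene, and *KDM1B* (0.117), a histone demethylase gene, with the median gene at 0.321. No test goes with these distances, and the libraries share groups and depth.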
